A study of Mus musculus with 43 samples.

Results

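Neuronal nuclei from the visual cortex of P301S tau mice that had received 40 Hz visual stimulation were compared with neuronal nuclei of wild type mice across all genes. The comparison used 11 of the 43 RNA sequencing libraries of the series, chosen by their labels: 5 stimulated P301S libraries and 6 wild type libraries. The P301S line, Tg(Prnp-MAPT*P301S)PS19, carries a human tau transgene with a mutation of frontotemporal dementia, driven by the promoter of the prion protein gene Prnp, which is active in neurons and in other brain cells. These mice were 8 months old, and stimulation, which the labels call GENUS (gamma entrainment using sensory stimuli), lasted 22 days. A set of 6 libraries from unstimulated P301S mice is given beside the comparison where it helps. The labels give neither an age nor a light treatment for the wild type mice, and no stimulated wild type group is used here. The stimulated P301S and wild type groups therefore differ in the transgene and in the stimulation at once, and within this comparison the part of each cannot be told apart.

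Tau, the product of Mapt, binds and stabilises microtubules in axons, and the mutant protein binds them less well and gathers into filaments inside neurons. Mice that make it lose synapses and later neurons. Flickering light drives neurons of the visual cortex to fire in step with the flicker, and firing neurons switch on immediate early genes such as Fos, Arc and Egr1 within minutes.

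Nuclei were sorted by the neuronal nuclear protein NeuN, the product of Rbfox3, and the deposited values are FPKM, a read level per length of transcript and per size of library. Rbfox3 itself stood at 89.2 to 103 FPKM in stimulated P301S nuclei and 90.0 to 99.9 FPKM in wild type nuclei. Long noncoding RNAs that stay in the nucleus were abundant, with a summed level of 20917 to 25519 FPKM in stimulated P301S and 20322 to 22952 FPKM in wild type libraries. The number of reads is not given in the files, so the depth of each library is unknown. Over the tested genes, library values correlated at 0.834 to 0.880 among stimulated libraries, 0.837 to 0.884 among wild type libraries and 0.837 to 0.893 between the groups. These correlation ranges within and between the groups overlapped. Summed FPKM was 530910 to 953501 in stimulated P301S and 507454 to 637951 in wild type libraries. Stimulated replicates 3 to 5, at 778675, 799766 and 953501, lay above every wild type library. A fit with each library scaled by its median ratio to the gene means is given at the end. Beyond that fit, the part of this difference in the results below was not tested. Stimulated replicate 2 had 496 tested genes listed at 0, against 152 to 346 in the other 10 libraries. The first principal component, with 11.5% of the variance, split every group: 2 stimulated, 3 unstimulated and 3 wild type libraries lay below 0, and the other 3 of each group lay above. The split followed the replicate numbers: stimulated replicates 1 and 2 and replicates 1 to 3 of the other groups lay below 0, and all higher numbers above. The labels name no batch that matches it and do not say what the numbers stand for, so some results are also given within each side. Ddx3y, a gene of the Y chromosome, was at 8.28 to 14.3 FPKM in all 17 libraries, and Xist, the RNA of the inactive X chromosome, was at most at 0.136 FPKM.

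No gene passed the test between stimulated P301S and wild type nuclei. Of 23953 genes in the files, 12200 had a mean of at least 1 FPKM over the 11 libraries and were tested on the log2(FPKM + 1) scale with limma, with p-values adjusted by the Benjamini-Hochberg method over all of them. At an adjusted p under 0.05, 0 genes (0%) were called, and the lowest adjusted p was 0.0513, for Prnp. The next lowest was 0.427. Before adjustment, 706 genes (5.79%) had a p under 0.05, of which 386 (3.16%) were higher and 320 (2.62%) lower in stimulated P301S nuclei. The 5 stimulated libraries lay above all 6 wild type libraries for 32 genes (0.262%) and below all of them for 31 (0.254%). The labels do not tie replicates to single animals, so a p-value here sets the groups against the spread between libraries, part of which may be technical.

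**Figure D1:**
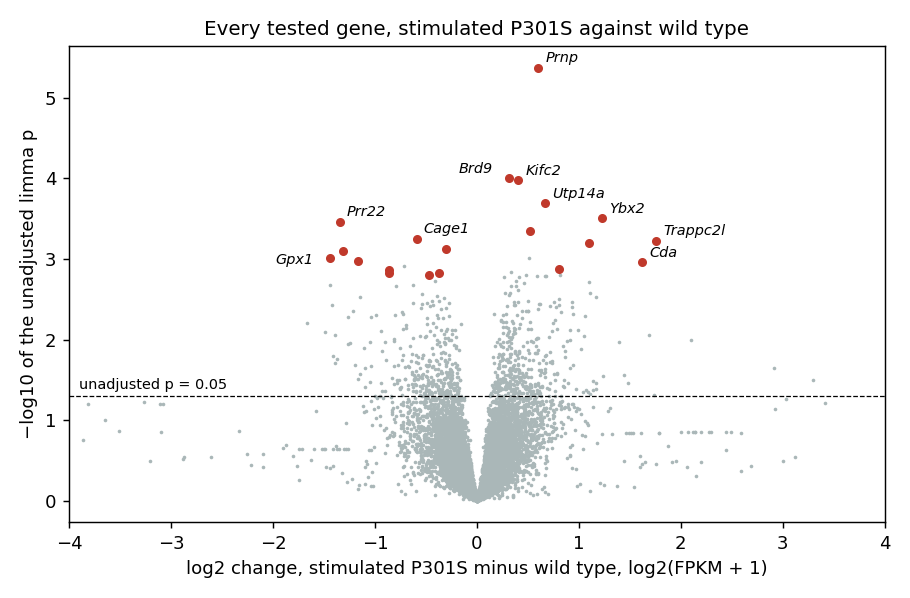
Each point is 1 of the 12200 tested genes, with its log2 change on the horizontal axis (stimulated P301S minus wild type, log2(FPKM + 1), cut at 4 either way, which leaves out 13 genes) and the −log10 of its unadjusted p on the vertical axis. The 20 genes named below are in red, and Prnp stands alone at the top with a log2 change of 0.60.

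The estimates themselves were close to 0 for most genes, and their intervals show which sizes of change the libraries could exclude. The median log2 change over all tested genes was 0.00, with quartiles of −0.13 and 0.13, and 6136 estimates were above 0 against 6064 below. On the log2(FPKM + 1) scale, the 95% interval lay wholly within a 2-fold change in either direction for 10376 genes (85.0%). It lay within a 1.5-fold change for 6658 genes (54.6%). These limits hold for FPKM + 1, which understates low genes, so in FPKM itself a larger change of a low gene is not excluded. The median standard error was 0.19 on the log2 scale, with quartiles of 0.13 and 0.27. A missed threshold does not show that a gene's level was equal in the groups. For the remaining genes a change of 2-fold was not excluded.

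Prnp, which encodes the prion protein and lends its promoter to the tau transgene, had the smallest p of all tested genes. Its values were 91.3, 95.01, 106, 102 and 89.0 FPKM in the 5 stimulated P301S libraries, 72.3 to 108 FPKM in unstimulated P301S libraries with a median of 87.6, and 58.2 to 68.6 FPKM in wild type libraries with a median of 63.7. Every stimulated library was above every wild type library, and so was every unstimulated P301S library. The mean was 96.7 ± 7.15 FPKM (SD, n = 5) in stimulated P301S, against 63.4 ± 3.84 FPKM (SD, n = 6) in wild type nuclei. The log2 change was 0.60 (SE 0.09, 95% interval 0.41 to 0.79), with a limma adjusted p of 0.0513 over all genes. An exact two-sided permutation test of this 1 gene gave p = 0.00216, the smallest that 462 labellings of the 11 libraries allow. That p follows from the lack of overlap, seen in 63 of 12200 tested genes (0.516%), and is no further support. This test was run on 4 genes chosen for their place in the transgenes of the series. Stimulated and unstimulated P301S nuclei differed in Prnp by 0.12 on the log2 scale, with a 95% interval of −0.08 to 0.31.

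The Prnp difference was of the same size on each side of the first component, with log2 changes of 0.58 among the libraries below 0 and 0.60 among those above. Neither passed the test within its side, with limma adjusted p of 0.720 and 0.356. The limma adjusted p of Prnp was under 0.05 in several other fits, among them 0.0195 with only the 2 groups in the fit. It was 0.00906 with a term for the side of the component, a fit added after the data were seen. It was 0.0637 to 0.290 when any 1 of the 11 libraries was left out, 0.149 with the replicate number as a block and 0.296 without the mean-variance trend. The files list mouse symbols only, and the part of transgene reads in the Prnp values was not tested.

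The 250 bases before the start of mouse Prnp are shown because they belong to the promoter of the gene with the smallest p, and the labels name that promoter for the transgene. Whether the transgene holds these bases was not tested. The sequence is from RefSeq, build GRCm38.p6, chr2:131909678-131909927, plus strand, 5′ to 3′, with GC boxes (GGGCGG or its reverse complement CCGCCC) in capitals.
Prnp upstream: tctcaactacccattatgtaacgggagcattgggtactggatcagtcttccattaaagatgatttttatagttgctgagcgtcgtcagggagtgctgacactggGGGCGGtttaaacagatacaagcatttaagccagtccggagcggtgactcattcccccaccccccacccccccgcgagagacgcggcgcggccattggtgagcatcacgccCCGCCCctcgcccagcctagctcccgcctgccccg
On both strands together, a GC box was found at 2 places, the CCAAT box (CCAAT) at 2 and TATAAA at 1. Among 32851 upstream windows of this length, 32.7% held a GC box, 33.8% a CCAAT box and 12.4% TATAAA. These matches describe letters in the window and no binding was measured.

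The other genes that the transgenes of the series draw on differed little between the groups, with narrow intervals. Mapt, the mouse tau gene, had 60.5, 55.1, 56.0, 58.7 and 52.8 FPKM in stimulated P301S libraries, 52.1 to 63.5 FPKM in unstimulated P301S libraries and 47.4 to 60.5 FPKM in wild type libraries with a median of 55.4. The groups overlapped, and the log2 change was 0.04 with a 95% interval of −0.11 to 0.19. Camk2a, a kinase of excitatory synapses, averaged 242 ± 14.6 FPKM (SD, n = 5) in stimulated P301S and 239 ± 24.1 FPKM (SD, n = 6) in wild type nuclei, a log2 change of 0.02 with an interval of −0.14 to 0.18. Its estimate was −0.20 among the libraries below 0 on the first component and so has no settled sign. Cdk5r1, an activator of the tau kinase Cdk5, averaged 27.6 ± 4.21 FPKM (SD, n = 5) in stimulated P301S and 28.2 ± 3.31 FPKM (SD, n = 6) in wild type nuclei, with a log2 change of −0.04 (interval −0.29 to 0.21). Exact two-sided permutation tests gave p = 0.567 for Mapt, 0.788 for Camk2a and 0.753 for Cdk5r1.

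**Figure D2:**
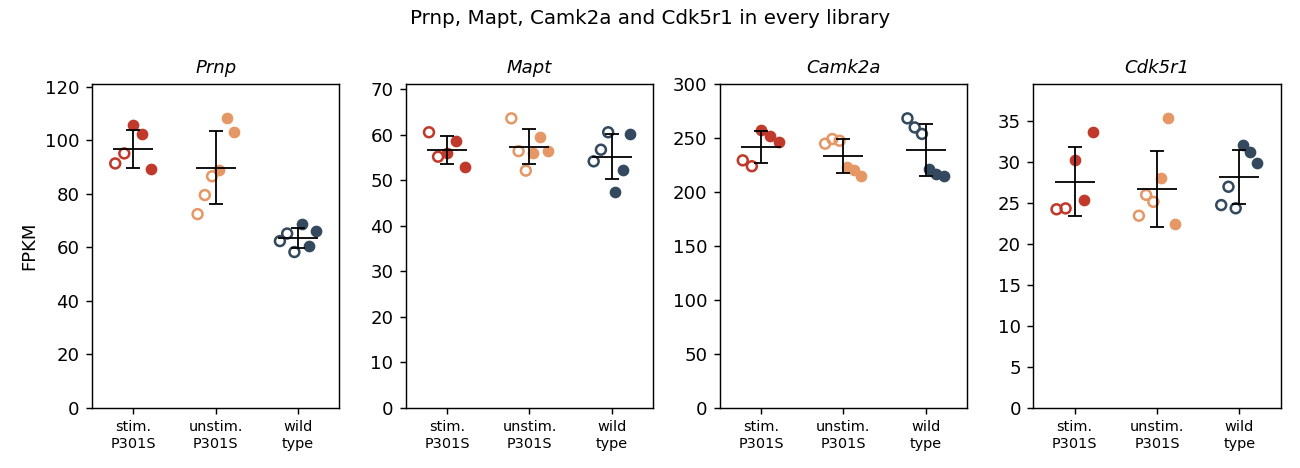
FPKM of Prnp, Mapt, Camk2a and Cdk5r1 in each library of stimulated P301S (n = 5), unstimulated P301S (n = 6) and wild type nuclei (n = 6), with mean and SD as black bars. Open circles are libraries below 0 on the first principal component and filled circles those above. For Prnp all stimulated libraries, from 89.0 FPKM upward, lie above all wild type libraries, of which the highest is at 68.6 FPKM, while the other 3 genes overlap.

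Since no gene passed, the 10 genes of smallest p in each direction are given as values and not as changes. Their limma adjusted p over all genes was 0.427 to 0.653, apart from Prnp. Brd9, a bromodomain subunit of a chromatin remodelling complex of the BAF family, had 174, 173, 178, 197 and 192 FPKM in stimulated P301S libraries. It had 150 to 158 FPKM in unstimulated P301S and 130 to 160 FPKM in wild type libraries, with medians of 154 FPKM in unstimulated P301S and 150 FPKM in wild type. All 5 stimulated libraries lay above all 12 others, and Brd9 was the only tested gene of which this was true (1 of 12200, 0.0082%). Among so many tested genes, such an order in 1 gene does not set it apart. Its log2 change was 0.32 (SE 0.06, interval 0.18 to 0.45, limma adjusted p = 0.427) against wild type and 0.25 (interval 0.12 to 0.38) against unstimulated P301S nuclei.

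Sirt7, a deacylase of the nucleolus, had 36.1, 25.3, 33.4, 42.9 and 43.5 FPKM in stimulated P301S libraries, against 22.1 to 28.7 FPKM in wild type libraries with a median of 23.9. Stimulated replicate 2 was the library that overlapped with wild type. Utp14a, which takes part in making the small ribosomal subunit, had 14.1, 18.4, 14.7, 14.0 and 14.4 FPKM in stimulated libraries and 6.40 to 11.2 FPKM in wild type libraries, with no overlap. The log2 changes were 0.52 (SE 0.12) for Sirt7 and 0.67 (SE 0.14) for Utp14a. Lin52, a member of a complex that represses cell cycle genes, and Ybx2, a nucleic acid binding protein best known from germ cells, were less abundant genes. Lin52 had 1.48 to 3.84 FPKM in stimulated P301S and 0.266 to 1.35 FPKM in wild type libraries, and Ybx2 had 3.20 to 6.18 FPKM in stimulated P301S and 0.378 to 2.39 FPKM in wild type libraries. Neither overlapped, and on the log2(FPKM + 1) scale, which understates low genes, their changes were 1.10 (SE 0.26) and 1.23 (SE 0.27).

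Kifc2, a kinesin of neurons with its motor at the C-terminal end, had 126, 114, 117, 118 and 99.8 FPKM in stimulated P301S libraries. In wild type libraries it had 73.5 to 98.9 FPKM with a median of 88.6, just below the lowest stimulated library. The log2 change was 0.41 (SE 0.08, interval 0.24 to 0.58, limma adjusted p = 0.427). Unstimulated P301S libraries had 104 to 124 FPKM, and the stimulated libraries differed from them by 0.04 (interval −0.13 to 0.21). Trappc2l, a subunit of a complex that tethers transport vesicles, had 9.57, 2.80, 8.48, 9.22 and 5.58 FPKM in stimulated P301S libraries, against 0 to 4.95 FPKM in wild type libraries, of which 2 were listed at 0. In unstimulated P301S libraries it had 4.22 to 9.85 FPKM.

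Cda, the cytidine deaminase of pyrimidine salvage, had 5.18, 5.77, 4.74, 4.64 and 1.88 FPKM in stimulated P301S libraries. It had 0 to 3.57 FPKM in unstimulated P301S and 0 to 2.004 FPKM in wild type libraries, and 2 libraries of each of these groups were listed at 0. Here the estimate against unstimulated P301S nuclei was 1.32 (interval 0.44 to 2.20) and that against wild type 1.62 (SE 0.42). Nmb, the neuropeptide neuromedin B, showed another order of groups. It had 5.65, 4.72, 3.53, 4.84 and 5.88 FPKM in stimulated P301S libraries, 6.23 to 9.06 FPKM in unstimulated P301S libraries and 1.18 to 3.57 FPKM in wild type libraries. Stimulated libraries thus lay below all unstimulated P301S libraries, and 4 of the 5 lay above all wild type libraries. The Nmb log2 change was 0.80 (SE 0.21) for stimulated P301S against wild type and −0.61 (interval −1.05 to −0.16) for stimulated against unstimulated P301S, and neither passed over all genes. For unstimulated P301S against wild type it was 1.41, with a limma adjusted p of 0.0214, the 1 call (0.0082%) in that comparison. Nmb was also the only one of 15 neuropeptide genes with a p under 0.05 between stimulated P301S and wild type nuclei, in a list with a median of −0.06.

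On the lower side, the genes with enough signal to be read in every library were Ptprt, Megf9, Uso1 and Cage1. Ptprt, a receptor tyrosine phosphatase of the neuronal surface, had 21.1, 20.4, 20.7, 21.2 and 21.6 FPKM in stimulated P301S libraries, against 24.9 to 29.4 FPKM in wild type libraries with a median of 25.7. The stimulated libraries varied little (SD 0.463) and all lay below wild type, with a log2 change of −0.30 (SE 0.07, interval −0.46 to −0.15). Against unstimulated P301S nuclei, at 21.1 to 27.3 FPKM, the change was −0.20 (interval −0.36 to −0.04). Megf9, a membrane protein with repeats like those of epidermal growth factor, had 35.9, 28.7, 32.1, 33.8 and 23.3 FPKM in stimulated P301S libraries and 37.9 to 45.2 FPKM in wild type libraries, also without overlap. Uso1, a tether of vesicles at the Golgi apparatus, had 9.99 to 14.1 FPKM in stimulated P301S and 12.6 to 20.1 FPKM in wild type libraries, which overlapped. Cage1, a gene known mainly from testis, had 6.48 to 8.18 FPKM in stimulated P301S and 10.1 to 15.5 FPKM in wild type libraries.

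The other 6 lower genes had few FPKM in at least 1 group. Gpx1, the glutathione peroxidase that removes hydrogen peroxide, had 0.935, 0, 0, 1.67 and 4.75 FPKM in stimulated P301S libraries, 0.576 to 1.55 FPKM in unstimulated P301S libraries and 3.09 to 7.22 FPKM in wild type libraries. Stimulated replicate 5 was the library within the wild type range. Acvr2b, a receptor for activins, had 0.767 to 4.49 FPKM in stimulated P301S libraries, 2.92 to 5.91 FPKM in unstimulated P301S libraries and 3.49 to 10.7 FPKM in wild type libraries. Fkbpl, a member of the FK506-binding protein family, averaged 1.01 ± 0.744 FPKM (SD, n = 5) in stimulated P301S and 4.04 ± 1.98 FPKM (SD, n = 6) in wild type nuclei, and 1 stimulated library was listed at 0. Gpr173, an orphan receptor of the brain, had 0.761 to 2.11 FPKM in stimulated P301S and 2.37 to 4.37 FPKM in wild type libraries. Prr22 had 0 to 2.04 FPKM in stimulated P301S and 2.12 to 7.72 FPKM in wild type libraries. Vmn2r85 belongs to the vomeronasal receptors, a family of close copies among which reads can be split, so its values of 2.44 to 6.24 FPKM in stimulated P301S and 7.10 to 13.5 FPKM in wild type libraries are uncertain. Gpr173, Prr22, Vmn2r85 and Cage1 did not overlap between the groups.

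In 2 of 12200 tested genes (0.0164%) all stimulated libraries lay below all 12 others, which among so many genes does not set them apart. Tmem180, the one of them with a gene name, was singled out after its values were seen. It had 3.24, 4.06, 2.76, 2.92 and 0.827 FPKM in stimulated P301S libraries, 4.22 to 6.98 FPKM in unstimulated P301S libraries and 4.12 to 6.57 FPKM in wild type libraries. Its log2 change against wild type was −0.79 (SE 0.22), with a limma adjusted p of 0.653.

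**Figure D3:**
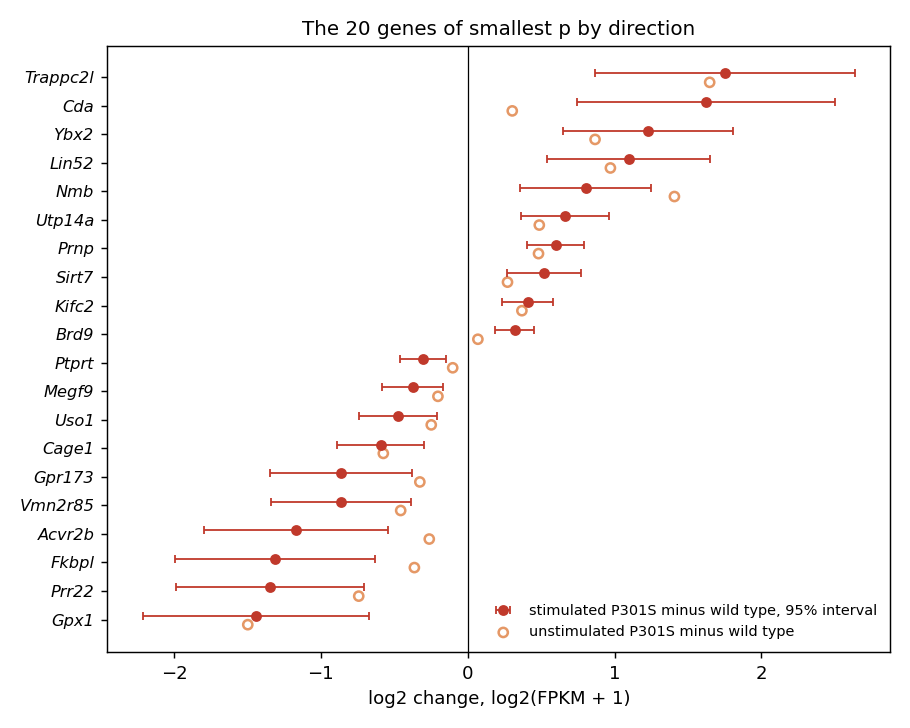
Log2 change on the log2(FPKM + 1) scale of the 20 genes of smallest p by direction, with filled circles and 95% intervals for stimulated P301S minus wild type and open circles for unstimulated P301S minus wild type, which shares the wild type libraries. The interval is 0.18 to 0.45 for Brd9 and 0.87 to 2.64 for Trappc2l. In a set picked by smallest p, larger changes come with wider intervals through that choice.

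Gene lists for 30 pathways and 9 cell types were then read across the comparison, and none had a member past the test. The lists are described by the number of tested members with an unadjusted p under 0.05, for which the share over all genes was 5.79%, and by the median log2 change, which over all genes was 0.00. Of 22 tau kinases and phosphatases, the enzymes that add and remove phosphate on tau, 0 had a p under 0.05, with a median change of 0.00, and for all 22 the interval excluded a 2-fold change. The members of smallest p were Mark1, at 0.17 (SE 0.10), and Mark2, at −0.23 (SE 0.14), both microtubule affinity kinases. Among 16 genes of amyloid precursor processing the median was −0.02, and Apba1, an adaptor that binds the precursor protein, and Ncstn, the nicastrin subunit of gamma-secretase, were lower at −0.25 (SE 0.08) and −0.27 (SE 0.12), the 2 members with a p under 0.05.

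Transport along microtubules, the track that tau binds, was described by 31 motor genes and 31 genes of tubulins, neurofilaments and microtubule binders, with medians of 0.03 and 0.02. Each had 3 members with a p under 0.05. Dcx, the microtubule binder doublecortin, had 24.5, 20.1, 18.6, 22.7 and 19.4 FPKM in stimulated P301S libraries, against 23.3 to 29.4 FPKM in wild type libraries, a log2 change of −0.27 (SE 0.08, limma adjusted p = 0.653). Stimulated replicate 1 was the library within the wild type range. Mapre3, a binder of microtubule plus ends, was higher at 0.26 (SE 0.09), with 49.0 to 62.0 FPKM in stimulated P301S and 43.3 to 49.7 FPKM in wild type libraries. Dync1li1, a light intermediate chain of dynein, was at −0.37 (SE 0.14) against wild type, and Dctn2, a subunit of its activator dynactin, was at −0.28 (SE 0.12).

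Genes of the synapse had medians close to 0. Of 34 genes of the synaptic vesicle cycle 0 had a p under 0.05 and 33 had an interval that excluded a 2-fold change, with a median of −0.01. Syt1, the calcium sensor of vesicle release, had 493 to 575 FPKM in stimulated P301S and 541 to 689 FPKM in wild type libraries, a log2 change of −0.17 (SE 0.09). Of 39 postsynaptic genes 3 had a p under 0.05, again with a median of −0.01, and all 39 intervals excluded a 2-fold change. Grm3, a metabotropic glutamate receptor, had 38.8, 37.8, 39.1, 31.4 and 26.7 FPKM in stimulated P301S libraries, 33.6 to 56.3 FPKM in unstimulated P301S libraries and 37.7 to 53.3 FPKM in wild type libraries. Its change was −0.37 (SE 0.13), and the groups overlapped at their edges. Shank1, a scaffold below excitatory synapses, was at 0.20 (SE 0.08).

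Receptors for GABA, the main inhibitory transmitter, had mostly estimates below 0. Of 13 GABA-A receptor genes 10 had an estimate below 0, and 3 (23.1%) had a p under 0.05, all lower, with a median of −0.11. Among them were the subunits Gabra2 (−0.29, SE 0.12) and Gabra3 (−0.27, SE 0.12). Gabra2 had 17.9, 21.5, 16.3, 19.0 and 14.4 FPKM in stimulated P301S libraries and 19.1 to 25.01 FPKM in wild type libraries, and 1 stimulated library lay within the wild type range. All 13 intervals excluded a 2-fold change, and the median was −0.15 to −0.06 when single libraries were left out. The same list had a median of −0.11 for unstimulated P301S against the same wild type libraries. Among 28 potassium channels 2 had a p under 0.05 and the median was −0.03, with Kcnh7 at −0.22 (SE 0.08). Among 25 sodium and calcium channels 0 had a p under 0.05, with a median of −0.06 and no interval that reached a 2-fold change.

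Membrane traffic was covered by 26 endocytosis genes, 50 sorting nexins, Vps and retromer genes, and 38 Rab GTPases, with medians of 0.01, 0.01 and 0.00. Of these, 2 endocytosis genes, 3 sorting genes and 2 Rab GTPases had a p under 0.05. Snx1, a sorting nexin of the retromer on endosomes, was the only member of the 30 pathway lists whose groups did not overlap. Over all tested genes this held for 63 of 12200 (0.516%), so it does not set Snx1 apart. Kifc2 and Brd9, which did not overlap either, are in none of these lists. Snx1 had 14.1, 14.7, 14.7, 13.7 and 15.3 FPKM in stimulated P301S libraries, 11.6 to 20.3 FPKM in unstimulated P301S libraries and 15.5 to 21.9 FPKM in wild type libraries. Its log2 change was −0.39 (SE 0.12, limma adjusted p = 0.653). Bin1, which bends membranes and is a risk gene of Alzheimer disease in humans, had 75.2, 86.2, 75.6, 66.6 and 72.9 FPKM in stimulated P301S and 55.5 to 75.7 FPKM in wild type libraries, a change of 0.24 (SE 0.09). Dnm2, a dynamin that cuts vesicles free, was at 0.23 (SE 0.10).

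Immediate early genes, which report recent firing of neurons, varied widely between libraries of a group. Of 20 tested members 15 had an estimate below 0 and 1 (5.00%) had a p under 0.05, with a median of −0.21. The member was Ier2, with 0 to 2.70 FPKM in stimulated P301S and 0.898 to 11.2 FPKM in wild type libraries. The list median was −0.34 to −0.05 when single libraries were left out. It was −0.06 without stimulated replicate 3, −0.14 without stimulated replicate 5, −0.11 without wild type replicate 5 and −0.05 without wild type replicate 3, and it was −0.32 without stimulated replicate 2, −0.34 without wild type replicate 1 and −0.32 without wild type replicate 4. For unstimulated P301S against the same wild type libraries it was −0.60. The following 6 genes were chosen after their values were seen. Fos had 11.5, 10.2, 2.13, 3.95 and 1.82 FPKM in stimulated P301S libraries, 0.232 to 2.31 FPKM in unstimulated P301S libraries and 1.36 to 19.1 FPKM in wild type libraries with a median of 6.65. Stimulated replicates 1 and 2 were high, and of the other 3 replicates 2 lay within the unstimulated P301S range. The log2 change of Fos was −0.23 (interval −1.30 to 0.85) against wild type and 1.36 (interval 0.28 to 2.43) against unstimulated P301S, and neither passed over all genes.

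The other activity genes also varied between libraries of a group. Arc, whose product acts at synapses, had 103, 58.4, 18.3, 32.7 and 21.7 FPKM in stimulated P301S libraries and 25.9 to 143 FPKM in wild type libraries with a median of 57.7. Egr1, a transcription factor, had 95.5, 57.7, 32.2, 62.0 and 34.4 FPKM in stimulated P301S and 28.3 to 144 FPKM in wild type libraries. Stimulated replicate 1 and wild type replicate 3 were the highest of their groups in Fos, Arc, Egr1, Npas4 and Junb, while stimulated replicate 2 was the highest of its group in Nr4a1. On the 2 sides of the first component the estimates had opposite signs. Among the libraries below 0 they were 0.79 for Fos, 0.28 for Arc, 0.10 for Egr1, 0.19 for Npas4, 0.34 for Junb and 0.15 for Nr4a1. Among the libraries above 0 they were −0.90, −1.01, −0.95, −0.75, −1.07 and −0.27 for the same genes, and the lowest limma adjusted p among these 12 estimates was 0.461. The direction of these genes against wild type therefore depended on which libraries were compared. Of 21 delayed activity genes, which follow the immediate early genes by hours, 0 had a p under 0.05, with a median of 0.01.

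**Figure D4:**
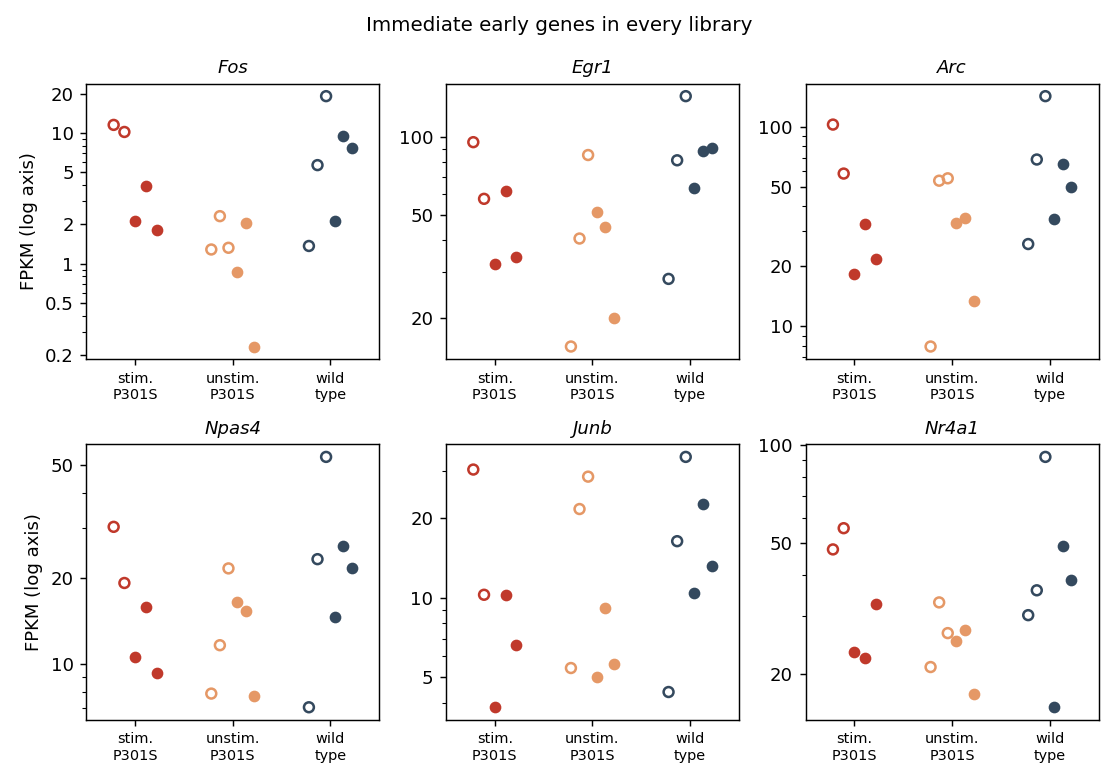
FPKM on a log axis of Fos, Egr1, Arc, Npas4, Junb and Nr4a1 in each library of stimulated P301S, unstimulated P301S and wild type nuclei. Open circles are libraries below 0 on the first principal component and filled circles those above. Stimulated and wild type libraries overlap for every gene, with Fos at 1.82 to 11.5 FPKM in stimulated P301S and 1.36 to 19.1 FPKM in wild type.

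Metabolic lists had medians between −0.12 and 0.04. Of 55 genes of oxidative phosphorylation 2 had a p under 0.05 and the median was 0.04. Ndufa8, a subunit of complex I, had 2.19, 4.32, 7.51, 4.37 and 7.44 FPKM in stimulated P301S and 6.53 to 16.1 FPKM in wild type libraries, a change of −0.99 (SE 0.31). The other member, Ndufa3, also of complex I, had 0, 0, 26.4, 9.24 and 14.6 FPKM in stimulated P301S libraries and 0 to 3.73 FPKM in wild type libraries, of which 4 were listed at 0, and its estimate was in the opposite direction at 1.74 (SE 0.82). Of 53 ribosomal protein genes 0 had a p under 0.05 and 33 had an estimate below 0, with a median of −0.11, but only 20 intervals excluded a 2-fold change. Of 19 glycolysis genes 2 had a p under 0.05, both lower, with a median of −0.08, and the first was Slc2a1, a glucose transporter, at −0.65 (SE 0.25). Cholesterol synthesis had 14 of 21 estimates below 0 and 3 members (14.3%) with a p under 0.05, all lower, with a median of −0.12. They were Fdft1, which makes squalene, Lss, which closes the ring of lanosterol, and Srebf2, the transcription factor of the pathway. Fdft1 had 11.8, 12.7, 11.9, 13.3 and 15.7 FPKM in stimulated P301S and 14.4 to 22.0 FPKM in wild type libraries, where only stimulated replicate 5 reached the wild type range. The changes were −0.46 (SE 0.14) for Fdft1, −0.56 (SE 0.24) for Lss and −0.18 (SE 0.08) for Srebf2. The list median was −0.16 to −0.04 when single libraries were left out, and at −0.07 or nearer to 0 without stimulated replicate 4 or 5 or wild type replicate 1, 2 or 6. It was −0.11 for unstimulated P301S against the same wild type libraries. Among the libraries below 0 on the first component its sign was the opposite, at 0.03, and among those above 0 it was −0.20.

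Genes of protein quality control and of DNA damage had medians near 0. The median was 0.05 for 25 genes of the unfolded protein and heat shock response, −0.03 for 40 of autophagy and lysosome, −0.03 for 31 of the proteasome, 0.04 for 19 of the cell cycle and −0.02 for 27 of DNA repair and p53. Psma4, a proteasome subunit, at 0.42 (SE 0.18), and Pold1, a DNA polymerase subunit, at 0.49 (SE 0.23), were the only members of these 5 lists with a p under 0.05. Of 27 type I interferon response genes 8 reached the filter, and of 15 MHC class I genes also 8, with medians of 0.10 and −0.07 and 0 with a p under 0.05. B2m, the light chain of MHC class I, had 2.40, 10.7, 8.78, 16.4 and 18.3 FPKM in stimulated P301S and 13.4 to 26.8 FPKM in wild type libraries, which overlapped.

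Lists of RNA splicing factors, chromatin regulators and nuclear long noncoding RNAs each had more estimates above 0 than below. RNA splicing factors had 27 of 37 estimates above 0 and 3 members (8.11%) with a p under 0.05, all higher, with a median of 0.08. Snrnp70, which recognises the start of an intron, had 446, 512, 373, 398 and 366 FPKM in stimulated P301S libraries, 374 to 527 FPKM in unstimulated P301S libraries and 288 to 377 FPKM in wild type libraries. Its change was 0.32 (SE 0.11), beside Srsf7 at 0.17 (SE 0.08) and Srsf11 at 0.15 (SE 0.07). The summed FPKM of the list was 2685 to 2755 in stimulated P301S and 2442 to 2649 in wild type libraries, without overlap. The sums of all other pathway and cell type lists overlapped, and this list was singled out after its values were seen. Its sum in unstimulated P301S libraries is not given. Abundant members weigh most in such a sum, and Snrnp70 alone averaged 419 FPKM in stimulated P301S and 335 FPKM in wild type nuclei. Chromatin regulators had 23 of 35 estimates above 0 and 3 members (8.57%) with a p under 0.05, all higher, with a median of 0.06. They were the acetyltransferase Kat2a (0.33, SE 0.09), the deacetylase Hdac3 (0.29, SE 0.11) and the histone demethylase Kdm6b (0.34, SE 0.14). Of 12 nuclear long noncoding RNAs 10 had an estimate above 0, with a median of 0.14 and 1 member, Snhg11, with a p under 0.05. Snhg11 had 1747, 1746, 1627, 1644 and 1491 FPKM in stimulated P301S libraries and 1278 to 1512 FPKM in wild type libraries, a change of 0.23 (SE 0.10). Meg3, an imprinted RNA of neurons, was at 0.30 (SE 0.15). For unstimulated P301S against the same wild type libraries the medians of these 3 lists were 0.06, 0.07 and 0.15. Among the libraries below 0 on the first component alone the medians for stimulated P301S against wild type were 0.02 for splicing factors, −0.00115 for chromatin regulators and 0.17 for the noncoding RNAs, and among those above 0 they were 0.10, 0.07 and 0.22.

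**Figure D5:**
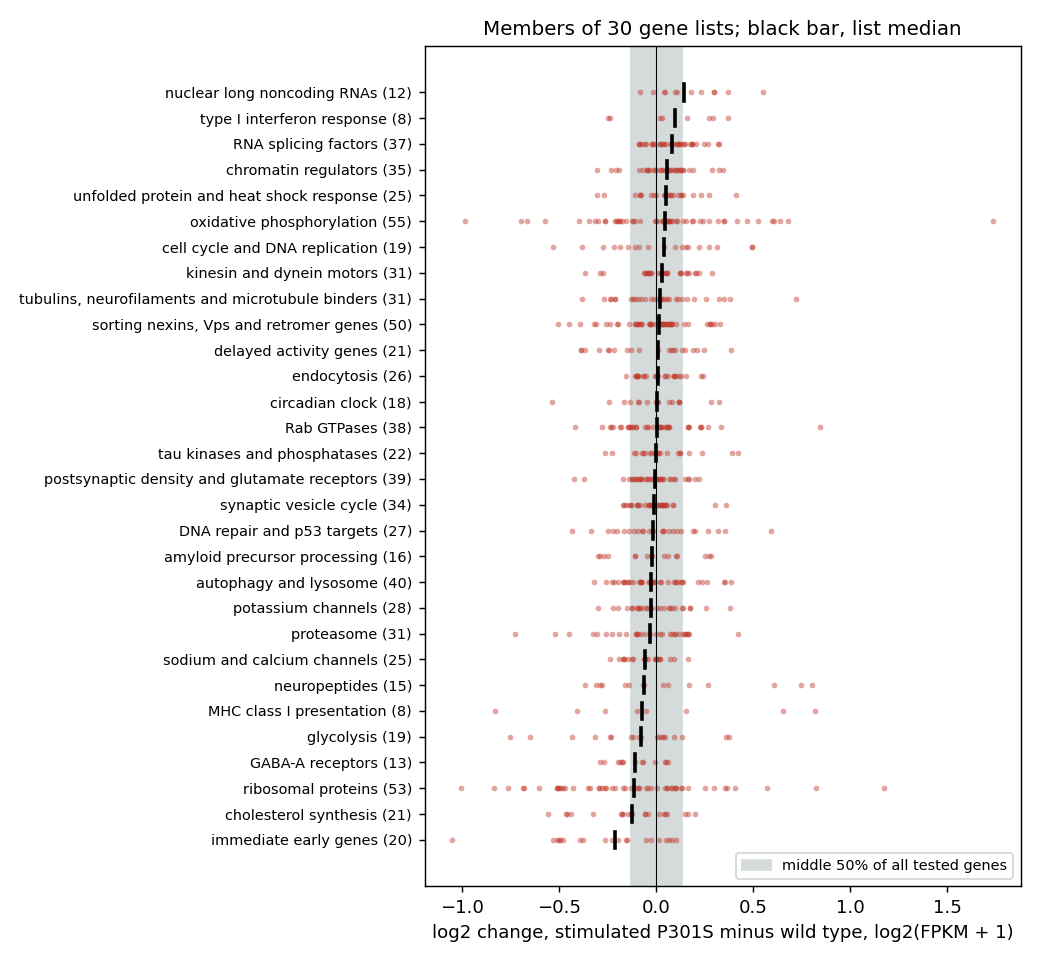
Log2 change (stimulated P301S minus wild type, log2(FPKM + 1)) of each tested member of 30 gene lists, 1 point per gene, with the list median as a black bar and the number of tested members in parentheses. The grey band holds the middle 50% of all tested genes, from −0.13 to 0.13, and only the medians of nuclear long noncoding RNAs (0.14) and immediate early genes (−0.21) lie outside it.

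Clock genes had estimates around 0 between the groups. Of 18 clock genes 0 had a p under 0.05 and the median change was 0.00. Ciart, a repressor of the clock, had 12.3, 9.998, 2.41, 5.10 and 3.36 FPKM in stimulated P301S libraries and 3.29 to 17.3 FPKM in wild type libraries. It was at 9.998 to 17.3 FPKM in all 8 libraries below 0 on the first component and at 2.41 to 7.66 FPKM in all 9 above, whatever their group. The other 17 clock genes overlapped between the sides. Thus 1 of 18 (5.56%) was higher in all libraries below 0, against 98 of all 12200 tested genes (0.803%), and 0 were higher in all libraries above 0, against 71 (0.582%). Tef, a clock-controlled transcription factor, was at 29.1 to 38.8 FPKM below 0 and 23.9 to 32.8 FPKM above. The component was computed from the same values, so this describes the split and is no test of it.

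Summed markers of cell types other than neurons overlapped between the groups. In sorted nuclei pooled per library, fewer nuclei of a type and less RNA per nucleus cannot be told apart. The median change was −0.01 for 12 neuronal markers, −0.11 for 22 markers of excitatory neurons and −0.05 for 18 of inhibitory neurons, of which 0, 1 and 0 had a p under 0.05. It was −0.00158 for 10 tested striatal markers, −0.07 for 16 of astrocytes, 0.05 for 12 of oligodendrocytes, −0.19 for 2 of oligodendrocyte precursors, −0.11 for 6 of microglia and 0.59 for the 1 tested endothelial marker. Of these, 1 astrocyte and 1 oligodendrocyte marker had a p under 0.05. Among excitatory markers Cux1, a transcription factor of upper cortical layers, was at −0.28 (SE 0.10), with 48.1 to 62.8 FPKM in stimulated P301S and 56.7 to 82.3 FPKM in wild type libraries. Slc17a7, the glutamate transporter of cortical excitatory vesicles, had 133, 139, 149, 110 and 122 FPKM in stimulated P301S and 132 to 155 FPKM in wild type libraries, which overlapped. The 20 astrocyte markers summed to 219 to 320 FPKM in stimulated P301S and 252 to 344 FPKM in wild type libraries, and the 15 oligodendrocyte markers to 95.4 to 119 FPKM in stimulated P301S and 87.1 to 120 FPKM in wild type libraries. The astrocyte gene Gfap was at 0.946 to 3.19 FPKM in stimulated P301S and 0.249 to 4.69 FPKM in wild type libraries. Its log2 change of 0.44 (SE 0.40) was the highest of the astrocyte list. Of the 16 tested astrocyte markers 7 had an estimate above 0 and 9 below. Among the lower ones were Atp1b2 at −0.18 (SE 0.08), the member with a p under 0.05, and Slc1a2 at −0.17 (SE 0.10). The 20 microglia markers summed to 11.9 to 19.4 FPKM in stimulated P301S and 14.9 to 28.9 FPKM in wild type libraries, and Tmem119 was listed at 0 in 4 of 5 stimulated P301S and 4 of 6 wild type libraries. The 20 endothelial and mural markers summed to 4.47 to 10.1 FPKM and the 10 markers of oligodendrocyte precursors to 6.90 to 12.1 FPKM in stimulated P301S libraries, against 4.17 to 9.08 FPKM and 8.31 to 14.3 FPKM in wild type libraries. Markers of striatal neurons, a check on the dissection, summed to 113 to 189 FPKM in stimulated P301S and 97.0 to 175 FPKM in wild type libraries. Ugt8a, an enzyme of myelin lipid synthesis, was at 1.86 to 2.37 FPKM in stimulated P301S libraries and at 0.168 to 2.63 FPKM in wild type libraries, of which only replicate 3 was above 0.966 FPKM. The part of such cells in the results above was not tested.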

How the data were processed

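The deposited values are FPKM for 23953 mouse gene symbols in 1 file per library, as the authors made them. Nuclei of the visual cortex were sorted with a NeuN antibody, and their RNA was made into libraries with a stranded kit for very small amounts of total RNA, per the labels' protocols. The submitters' processing notes name STAR, Cufflinks 2.0.0 and build mm9 without roles. The sources used here do not give the annotation, strand setting or filters of the counting. Of the summed FPKM of a library, 27.2% to 38.3% lay in small RNA genes. No 2 of the 17 files held identical values, and all columns used belong to labelled samples.

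Groups came from the sample titles. The 12200 genes with a mean of at least 1 FPKM over the 11 stimulated P301S and wild type libraries were tested on log2(FPKM + 1). In limma 3.58.1 under R 4.3.3, 3 group means (5 stimulated P301S, 6 unstimulated P301S and 6 wild type libraries) shared 1 spread, moderated by empirical Bayes along the mean-variance trend. Two-sided p-values were adjusted by the Benjamini-Hochberg method over all tested genes, with a threshold of 0.05. The model was checked on simulated data. A gene listed at 0 can be a failed estimate, and no counting interval is given because depth is unknown.

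The genes named are Mapt, Prnp, Camk2a and Cdk5r1, then up to 10 per direction past the test without overlap between groups, filled with the smallest p where fewer pass, without clone names, pseudogenes, predicted genes and small RNAs, and the 1 or 2 members of smallest p of each list. Others were chosen after their values were seen: 6 immediate early genes, Tmem180, Slc17a7, Gfap, Tmem119, and list members with an unadjusted p under 0.05. The clock genes other than Ciart and Rorb were also named after their values were seen. Some list members are not reported here by name. Members, lists and alternatives were chosen with earlier results of these data known. Alternatives concerned the libraries in the fit, the pseudocount, the filter, exact zeros, scaling, the trend, the replicate block and single libraries left out. The sign of the first principal component was added as an alternative after the data were seen. Upstream sequence came from RefSeq, and no coordinates of the files' own build are given. Figures were drawn with matplotlib 3.10.9 in Python 3.11.15.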

Additional observations from a re-analysis of the deposited data

Results flagged for a closer look

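In groups of 5 or 6 libraries, 15 of 218 pairs of a gene and a group held 1 library far from the others, where chance gives about 1 in 20. The gap of that library to its nearest neighbour was large against the range of the group, by Dixon's criterion. Stimulated P301S replicate 2 accounted for 3 of them, with 18.4 FPKM of Utp14a against 14.0 to 14.7 in the other stimulated libraries, 28.9 FPKM of the sorting nexin Snx32 against 41.5 to 44.0, and 23.1 FPKM of the DNA damage binder Ddb2 against 10.7 to 12.7. Without that library Utp14a kept its direction, as did Snx32 and Ddb2. Among the other stimulated libraries, replicate 1 had 92.9 FPKM of the neuropeptide gene Cck against 144 to 149, and 30.5 FPKM of Junb against 3.86 to 10.3. Replicate 3 had 11.8 FPKM of the interferon factor Irf9 against 4.34 to 5.63, and replicate 4 had 63.9 FPKM of the splicing factor Srsf7 against 47.2 to 51.1.

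In wild type nuclei, replicate 3 had 19.8 FPKM of the immediate early gene Ier5 against 11.3 to 13.9 in the other wild type libraries, 143 FPKM of Arc against 25.9 to 68.7, and 2.63 FPKM of Ugt8a against 0.168 to 0.966. Replicate 2 had 105 FPKM of the dendritic gene Map2 against 86.8 to 93.3, 5.69 FPKM of Lhfpl3 against 2.27 to 3.22, and 2.70 FPKM of Ly6c1 against 0 to 0.787. Replicate 4 had 2.48 FPKM of the oligodendrocyte gene Opalin against 0 to 0.588, and replicate 6 had 45.2 FPKM of Megf9 against 37.9 to 39.9.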

How the results depend on the processing

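The count of genes past the test between stimulated P301S and wild type nuclei was 0 and became 1, Prnp, higher, with only the 2 groups in the fit, a pseudocount of 0.1, a minimum mean of 5 FPKM, genes listed at 0 left out, or a term for the side of the first principal component. Without any 1 library it was 0 to 1, and it was 1, Prnp, without unstimulated P301S replicate 1, 5 or 6. Among libraries below 0 on the component 1 gene was lower, and among those above 1 was higher, both small RNAs. For stimulated against unstimulated P301S these fits gave 1 and 3 genes, and the others 0. With median-ratio scaling of the libraries the count stayed at 0, and Prnp was at 0.598 with a limma adjusted p of 0.0538. With the replicate number as a block the count stayed at 0, with a lowest adjusted limma p of 0.149. The labels do not state that the numbers pair libraries, so they were not taken as a pairing. Same-numbered stimulated and wild type libraries correlated at 0.0263 to 0.108 in their deviations from group means. Values for unlike numbers are not given beside these. The first component followed the replicate numbers, and what the numbers share was not tested.

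Of 2997 pairs of a named gene and an alternative, 2965 kept direction and side of the threshold, 8 passed it (all Prnp) and 24 reversed, none of them among the 20 genes of smallest p; the cause was not tested. Among libraries below 0 the reversed values were Camk2a −0.20, Grn −0.00968, Irf9 −0.0263, Map2 −0.00936, Lhfpl3 0.12, Fos 0.79, Egr1 0.0961, Arc 0.28, Npas4 0.19, Junb 0.34 and Nr4a1 0.15. Camk2a was −0.00683 with the block. With 1 library left out, values ranged from −0.00153 to 0.0676 for Mapt, −0.0102 to 0.0541 for Camk2a, −0.108 to 0.00649 for Cdk5r1, −0.460 to 0.00946 for Lhfpl3, −0.53 to 0.0926 for Fos and −0.40 to 0.0930 for Nr4a1. No list had a member past the test between stimulated P301S and wild type nuclei under any alternative run, while Pdia4, of the unfolded protein list, was among the 3 genes past it between stimulated and unstimulated P301S libraries above 0, and unknown depth limits what low genes can show.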
